A study of Humulus lupulus with 6 samples.

Results

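Long-intron loci of hop (Humulus lupulus, cultivar Cascade) were described in the RNA of leaf, stem and apical meristem. Gene models assembled separately from each tissue were treated as 1 locus when their exons overlapped on the same strand by 1 base or more. A locus was a member of the long-intron set if it had a model in all 3 tissue tables, had no model of 20 or more exon blocks, and held a gap of more than 5000 bases between successive exon blocks of 1 model in at least 2 of the 3 tables. An exon block is a stretch covered by 1 or more overlapping exons of a model, and a gap is the stretch between neighbouring blocks that no exon of the model covers. It stands for an intron where a transcript runs across it, which tables of exons do not show. This rule gave 1440 members of 67811 loci, of which 33811 had a model in all tissues. They were set beside the other 22234 multi-exon loci, which met the same limits on tables and blocks, had at least 2 blocks in at least 2 tables, and lacked the gap.

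The samples were young leaves, actively growing stems and apical meristems of glasshouse plants that received only sprays against insects and fungi. The labels list 2 samples for each tissue, while their protocols speak of 1 library per tissue, and the deposited tables hold 1 count column per tissue. No error between plants could be estimated, so differences between tissues are given as sizes, with no p-value. The counted fragments numbered 162799212 in leaf, 125454712 in stem and 135877224 in meristem. The tables carry gene numbers without names, so the tissue labels could not be checked against marker genes and no function is given for any locus. In bulk tissue, fewer cells of a type and less RNA per cell cannot be told apart.

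Introns are cut out of the primary transcript by the spliceosome, which must pair the splice sites at both ends however far apart they lie. Plant introns are usually short compared with those of vertebrates, and the very long ones in large, repeat-rich plant genomes often contain transposable elements. In many plant genes the first intron is the longest, and some first introns carry sequence that raises expression.

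The members were large loci made mostly of intron, which the rule itself brings about, so their span and exonic share are a description. Their median span was 16617 bases, against 2937 bases for the other multi-exon loci. Total exonic length differed less, with a median of 1809 bases in members and 1412 bases in the others. It was taken in the tissue with the most exonic bases, with the models of a tissue merged. Exonic sequence made up a median of 10.4% of the span of members and 51.0% of the span of the others. Members had a median of 8 exon blocks and the others a median of 5. The share of loci that were members went with exon number, at 2.84% among loci of 2 to 3 blocks, 5.17% at 4 to 6, 7.55% at 7 to 10 and 14.4% at 11 to 19 blocks. A locus with more blocks has more gaps, any of which can meet the rule, so this rise is also only a description.

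The gap that met the rule (the second largest of the 3 tissue values) had a median of 9763 bases. It was 5 to 10 kb long in 736 members (51.1%), 10 to 20 kb in 358, 20 to 50 kb in 212, 50 to 100 kb in 73 and above 100 kb in 61, where each class excludes its lower limit. One long gap per model was the usual state. A maximum of 1 gap over 5000 bases in any model was found in 1149 members (79.8%), of 2 in 212, of 3 in 51 and of at least 4 in 28. At the edge of the rule, the smallest qualifying gaps were 5006, 5008 and 5013 bases, and the largest that missed it were 5000, 4996 and 4995 bases. The members lay on 1130 of 6785 contigs, 908 of which held a single member. The most on any contig was 10, on 000069F.

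Long gaps of members were assembled with the same ends in the separate tissue tables less often at 10 kb and more than at 5 to 10 kb. Since members were chosen for a gap over 5000 bases in at least 2 tables, the rule itself raises the sharing of such gaps, and the shares of gaps of 1 to 5 kb, which were not chosen so, are given only as a description. Among distinct gaps of 5 to 10 kb in members, 586 of 1198 had identical start and end in all 3 tables (48.9%, 95% interval 46.0 to 51.8). For gaps of 1 to 5 kb the share was 47.9% in members and 51.5% in the other loci. It was 33.7% at 10 to 20 kb, 18.8% at 20 to 50 kb, 0.985% (2 of 203) at 50 to 100 kb and 4.32% (6 of 139) above 100 kb. The intervals treat gaps as independent draws and cover counting error only.

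**Figure D1:**
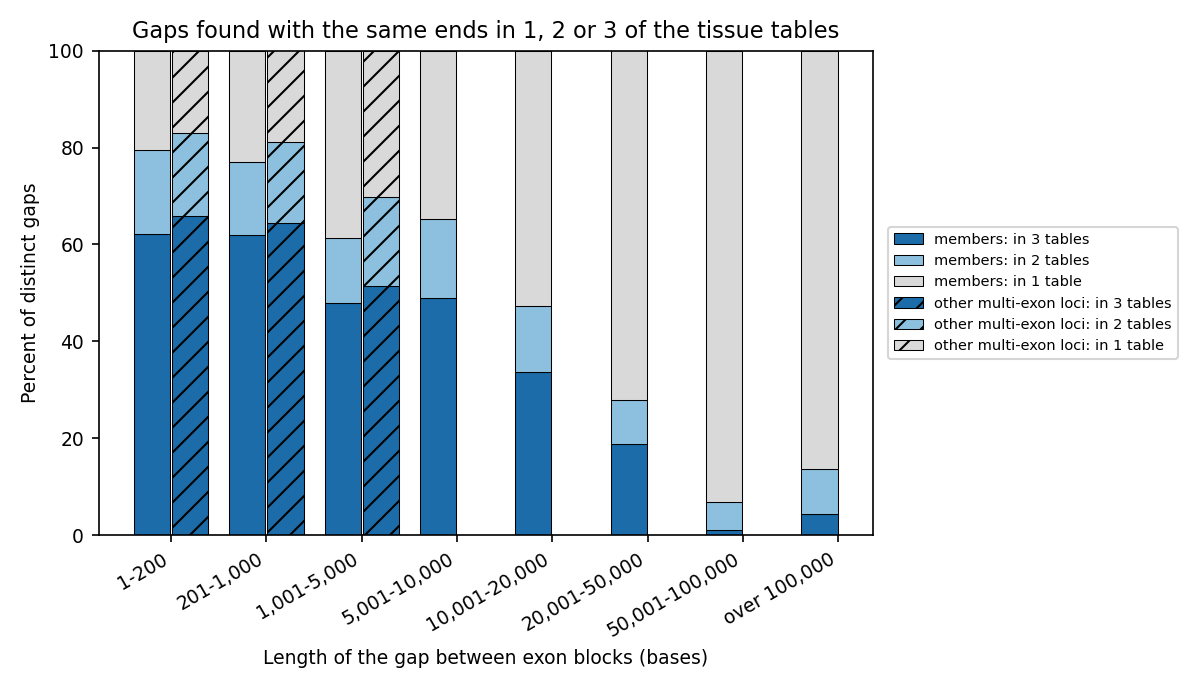
Percent of distinct gaps (vertical axis) found with identical ends in 3 (dark blue), 2 (light blue) or 1 (grey) of the tissue tables, by gap length in bases (horizontal axis). Plain bars are members and hatched bars the other multi-exon loci, which by the rule can hold no gap over 5000 bases in more than 1 table. The dark part is 48.9% at 5 to 10 kb and 0.985% at 50 to 100 kb.

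Up to 100 kb, the drop with length was also seen at well-expressed loci. Over members with at least 10 normalised CPM in their lowest tissue (CPM is the fragment count scaled to the depth of its table, here also by TMM factors), 68.0% of gaps of 5 to 10 kb were identical in all tables. The corresponding share of gaps of 1 to 5 kb in the other loci was 68.5%. At the same level it was 41.1% for gaps of 10 to 20 kb, 17.7% at 20 to 50 kb, 1.28% at 50 to 100 kb and 9.43% (3.13 to 20.7) above 100 kb. At members below 1 CPM in their lowest tissue, 20.2% of gaps of 5 to 10 kb were identical in all tables. Allowing both ends to differ by up to 100 bases raised the shares over all members to 54.5% at 5 to 10 kb, 39.7% at 10 to 20 kb, 27.1% at 20 to 50 kb, 7.88% at 50 to 100 kb and 8.63% above 100 kb. Among the gaps over 100 kb, 64 of the 120 found in 1 table shared 1 end, but not the other, with a gap of the same locus in another table.

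Counted by locus, 1097 members (76.2%) had a gap over 5000 bases with identical ends in at least 2 tables, and 803 (55.8%) in all 3. The remaining 343 met the rule through gaps whose ends differed between tables. Of the members with a qualifying gap of 5 to 10 kb, 86.7% had an identical gap in at least 2 tables, against 27.4% at 50 to 100 kb and 39.3% above 100 kb.

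A few very long gaps were found identically in all tissues. The longest was 282362 bases on contig 000145F (1408226 to 1690587, plus strand). Its locus had 33.6 CPM in leaf, 44.3 in stem and 29.2 in meristem. Next were gaps of 259340 bases on 000327F (737148 to 996487) and of 169246 bases on 000043F (1537981 to 1707226), both on the plus strand. The locus on 000043F had 4 blocks and 1 model in each tissue, at 35.1 CPM in leaf, 12.4 in stem and 27.7 in meristem. All 3 were picked with their values already known.

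The longest gaps of all were not of this kind. The locus on 000190F (726898 to 1294022, plus strand) had a longest gap of 496606 bases in leaf, 94235 in stem and 256 in meristem. On 000069F (1608387 to 2111452, plus strand) the longest gap was 492739 bases in leaf, 5447 in stem and 4378 in meristem, and 42 other loci lay inside the long gaps of its models. On 000330F (354036 to 949755, minus strand) it was 1122 bases in leaf, 463631 in stem and 124179 in meristem. In each of these 3 loci no gap over 5000 bases was identical in any pair of tables, and opposite-strand models overlap those on 000190F and 000069F. The locus with the most long gaps, on 000198F (1258127 to 1450088, plus strand), had 8 in 1 model. Its longest was 35841 bases in leaf, 2854 in stem and 32633 in meristem.

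The gap was present in all 3 tables in 1084 members (75.3%). Such a gap was missing from the leaf table in 144 members, from the stem table in 112 and from the meristem table in 100. A gap just under the limit also counts as missing, as in leaf at the member on 002313F, with 4978 bases. In the table without one, both sides of the gap found elsewhere were present in separate models at 168 of the 356 loci (47.2%). Only the 5′ side was modelled at 87 and only the 3′ side at 82, and at 19 a model ran across with an additional exon block inside. The tissue without such a gap was the one with the lowest level at 234 of the 356 loci. The log2 difference of its level from the mean of the other tissues had a median of -1.21. A level is summed over the models present, so exons left unmodelled in a table add nothing to it. By class the median was -1.81 with only the 3′ side modelled, -1.11 with only the 5′ side and -1.14 with separate models. It was 0.22 at the 19 loci with a single model on both sides, 4 of which were lowest in that tissue. The part of unmodelled exons in these values was not tested. Where all tables had such a gap, leaf was lowest in 35.3% of members, stem in 33.8% and meristem in 30.9%.

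In members, the long gap was less often the first of the transcript than the longest gap was in other loci. Among 1337 members with at least 2 gaps in the model, the longest gap was the first from the 5′ end in 199 (14.9%, 95% interval 13.0 to 16.9). An even spread over the gaps of these models would give 19.3%. Among 18361 other loci it was the first in 32.6% (32.0 to 33.3), where an even spread would give 26.0%. In models of 10 or more gaps the shares were 3.43% in members and 18.5% in the other loci, with 7.80% and 8.26% for an even spread. In models of 5 to 9 gaps they were 10.5% in members and 26.2% in the others, with 15.0% and 15.9% for an even spread. In models of 2 to 4 gaps they were 31.7% in members and 41.4% in the others, with 35.9% and 38.3% for an even spread. The members' interval in that class, 27.3 to 36.3%, contains their even spread.

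Among members the share was 16.7% at 5 to 10 kb, 13.4% at 10 to 20 kb, 11.7% at 20 to 50 kb, 7.46% at 50 to 100 kb and 22.6% above 100 kb. The even spread would give 19.4%, 18.7%, 17.6%, 20.8% and 24.5% in the same order. The share above 100 kb rests on 53 members and has an interval of 12.3 to 36.2%, which contains the 14.9% of all members. Among the other loci it was 37.8% where the longest gap was at most 200 bases, with 37.1% for an even spread. It was 32.8% at 200 to 1000 bases and 31.6% at 1 to 5 kb, with 24.9% and 25.1% for an even spread. In members whose gap was identical in all 3 tables the share was 13.7%, with 17.6% for an even spread. At 10 CPM or more in all tissues it was 13.0% in members and 32.7% in the other loci, with 16.2% and 21.6% for an even spread. The longest gap was the last one in 18.0% of members and 24.0% of the others, against 19.3% and 26.0% for an even spread. With the gaps of a model divided by order into 5 equal parts, the middle part held 28.2% of the longest gaps in members of at least 5 gaps, with 21.0% for an even spread. Whether models that begin inside a transcript move these shares was not tested.

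**Figure D2:**
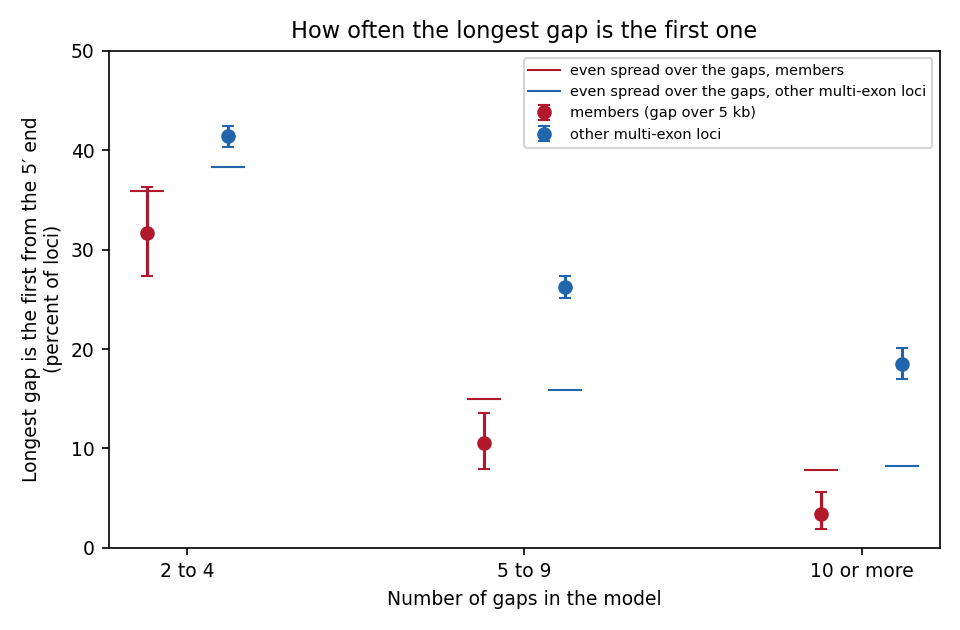
Percent of loci whose longest gap is the first from the 5′ end (vertical axis), by the number of gaps in the model (horizontal axis), for members (red, left) and other multi-exon loci (blue, right). Bars on points are exact binomial 95% intervals over loci and dashes show an even spread over the gaps. Members lie at 10.5% and 3.43% in models of 5 to 9 and of 10 or more gaps, where the others lie at 26.2% and 18.5%.

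Some long gaps had other transcribed loci inside them. At least 1 whole locus lay within a gap over 5000 bases in 318 members (22.1%). The nested locus was on the same strand in 237 members and on the other strand in 193. By gap class, 10.7% of members at 5 to 10 kb had a nested locus, 16.5% at 10 to 20 kb, 35.8% at 20 to 50 kb, 74.0% at 50 to 100 kb and 82.0% above 100 kb. Per 100 kb of gap there were 3.01 nested loci, and between the first and last locus of each contig there were 3.15 loci per 100 kb. The first value counts only loci lying wholly inside a gap and the second counts every locus, so they are not like for like. Nested loci were weakly expressed, with a median of 0.283 CPM in their highest tissue. Of the 1174 nested loci, 67.9% had a single exon, against 51.7% of all loci, and 18.5% had a model in all tissues, against 49.9% of all loci.

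Spliced loci with models in all tissues lay inside the gaps of 92 members, and on the same strand in 62. A spliced locus on the same strand was found in the gap of 0.951% of members with gaps of 5 to 10 kb and of 23.0% of those above 100 kb. Nested loci of any kind were present at 53.4% of the members with no identically shared gap and at 12.3% of those with one. The qualifying gap had a median of 19105 bases without sharing and 8380 bases with it. Per 100 kb of gap there were 4.19 nested loci without sharing and 1.84 with it.

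Pairs of loci on different contigs with the same exons were used to compare gap lengths directly. Loci were paired if models of both held at least 5 internal exon blocks of exactly the same lengths in the same order. Of 821 members with a model of at least 7 blocks, 129 (15.7%, 13.3 to 18.4) had such a look-alike, against 24.8% (23.8 to 25.8) of 7278 other loci. The members formed 96 pairs, some of which share a locus, 49 with another member and 47 with a locus outside the set. Whether the look-alikes are gene duplicates or the 2 parental copies of a heterozygous gene cannot be told from these tables. Reads that align to both are left out by the authors' counting, so the levels of such copies are uncertain by an unknown amount.

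Pooled over pairs, the long gap often differed in length between look-alikes, and the other gaps mostly matched. In 88 pairs the paired model of the member held a gap over 5000 bases. The gap at the same place in the look-alike was within 10% of that length in 21.6% of the pairs. Of the 741 other gaps of these pairs, 607 (81.9%) were within 10%. In 41 pairs the look-alike had at most 5000 bases at that place, and in 29 at most 1000. Among the 41, the median was 6060 bases in the member and 562 bases in the look-alike. In some of the 41 the other gaps differed as well. Between 002439F (378522 to 387260) and 001653F (635189 to 637954), 0 of 5 other gaps were within 10%. Between 002574F (280025 to 300078) and 002271F (160621 to 165172) it was 1 of 10. Of the 47 pairs with more than 5000 bases in both, 19 were within 10%. The rule bears on these shares, since a look-alike outside the set lacks a gap over 5000 bases in at least 2 tables, so they are not like for like with those of other loci, which face no such limit. In pairs of other loci whose longest gap was 1 to 5 kb, that gap was within 10% in 56.6% of 339 pairs, as were 75% of the remaining gaps. With a longest gap of 200 to 1000 bases, 73.9% of the longest and 81.6% of the remaining gaps were within 10%.

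**Figure D3:**
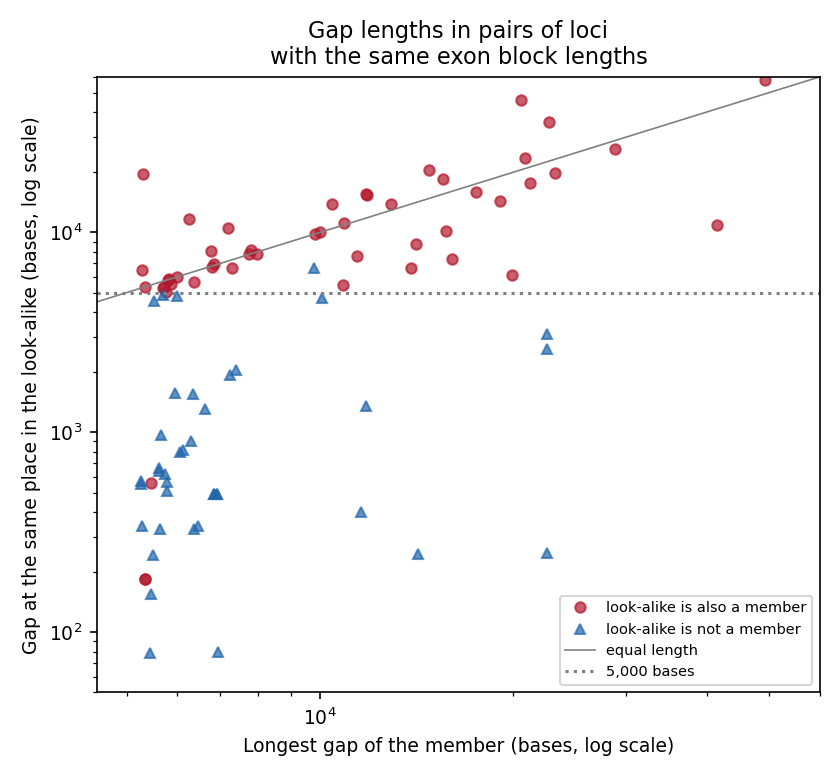
Length of the longest gap in a member (horizontal axis, bases, log scale) and of the gap at the same place in its look-alike on another contig (vertical axis, bases, log scale), for 88 pairs. Red circles are pairs of 2 members, drawn in an arbitrary order, and blue triangles pairs with a locus outside the set. Points on the grey line have equal lengths, and 41 pairs have at most 5000 bases in the look-alike.

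Single pairs whose other gaps mostly match show the pattern. They were chosen after their values were seen, among the 18 pairs in which the block series stood in all 3 tables at both loci. The member on 006985F (137152 to 147866, plus strand) and the locus on 002663F (227877 to 233728, plus strand) have 9 blocks. Gap number 6 from the 5′ end is 6338 bases long in the member and 1547 bases in the look-alike, and 6 of the 7 other gaps are within 10%. The member had 85.7 CPM in leaf, 26.5 in stem and 44.4 in meristem, and its look-alike 102 in leaf, 24.2 in stem and 44.9 in meristem. The levels are close and in the same order of tissues.

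A 16-block pair on 002879F (284713 to 300079, minus strand) and 005050F (219564 to 233501, minus strand) differs at 2 places, in opposite directions. Gap number 3 is 5449 bases in the first and 560 in the second, while gap number 9 is 4975 bases in the first and 8476 in the second. Of the 14 gaps other than number 3, 13 are within 10%. The first had 37.9 CPM in leaf, 61.8 in stem and 43.3 in meristem, and the second 33.5, 48.8 and 43.8 in the same order.

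Some long gaps are nearly the same in both copies. The 12-block loci on 000401F (976071 to 987065, plus strand) and 002417F (157090 to 168023, plus strand) have a gap of 5346 and of 5345 bases, both as gap number 6. A 14-block pair on 001038F (416943 to 434255, minus strand) and 005226F (61062 to 78405, minus strand) has gaps of 9840 and 9816 bases. In another pair the gap differs: on 000480F (948678 to 963281, plus strand) and 003285F (388500 to 406742, plus strand), gap number 2 is 11834 and 15435 bases, with all 6 other gaps within 10%. In all 96 pairs, 69 (71.9%) had the same tissue as their highest. Some of these pairs share a locus, and the share for loci without a look-alike was not worked out.

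Median levels of the members were close to or below those of other loci with as many exons. The median was 12.1 CPM in leaf, 12.1 in stem and 12.3 in meristem for members, against 9.46, 8.61 and 9.86 CPM for the other loci. After weighting the other loci to the exon block numbers of the members, their medians were 13.1 CPM in leaf, 12.6 in stem and 14.6 in meristem. Per kb of model the member medians were 7.56 CPM in leaf, 6.57 in stem and 6.62 in meristem. The weighted medians of the others on that scale were 8.06, 7.58 and 8.29. The rule asks for a model across the gap in at least 2 tables, so the level takes part in the choice of members, and no test of the level was made. Members without a shared gap had median levels per kb of 5.79 CPM in leaf, 4.90 in stem and 3.72 in meristem, against 8.19, 7.06 and 7.75 CPM for members with one.

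Members held 5.11% of all fragments counted in leaf, 5.22% of those in stem and 5.40% of those in meristem. In leaf, 1 locus took 7.82% of the members' fragments, and without it the members took 4.73% of the table. It lies on 000973F (50320 to 259212, minus strand), with 5260 CPM in leaf, 32.9 in stem and 151 in meristem, a leaf level 160-fold above stem and 35.0-fold above meristem. Its 2 blocks in leaf are 207718 bases apart, in stem its models have 1 block each, 3 other loci lie inside the gap, and an opposite-strand model overlaps it. The most abundant member in stem, on 002718F (151510 to 176709, minus strand), was nearly level, with 1120 CPM in leaf, 1070 in stem and 1090 in meristem. Its gap was 20528 bases in leaf, 20484 in stem and 20524 in meristem. In meristem the top member lay on 002313F (373966 to 381047, minus strand), with 1110 CPM in leaf, 25.1 in stem and 1620 in meristem. It has 8 blocks and a gap of 4978 bases in leaf, 5042 in stem and 5041 in meristem, and is overlapped on the other strand.

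**Figure D4:**
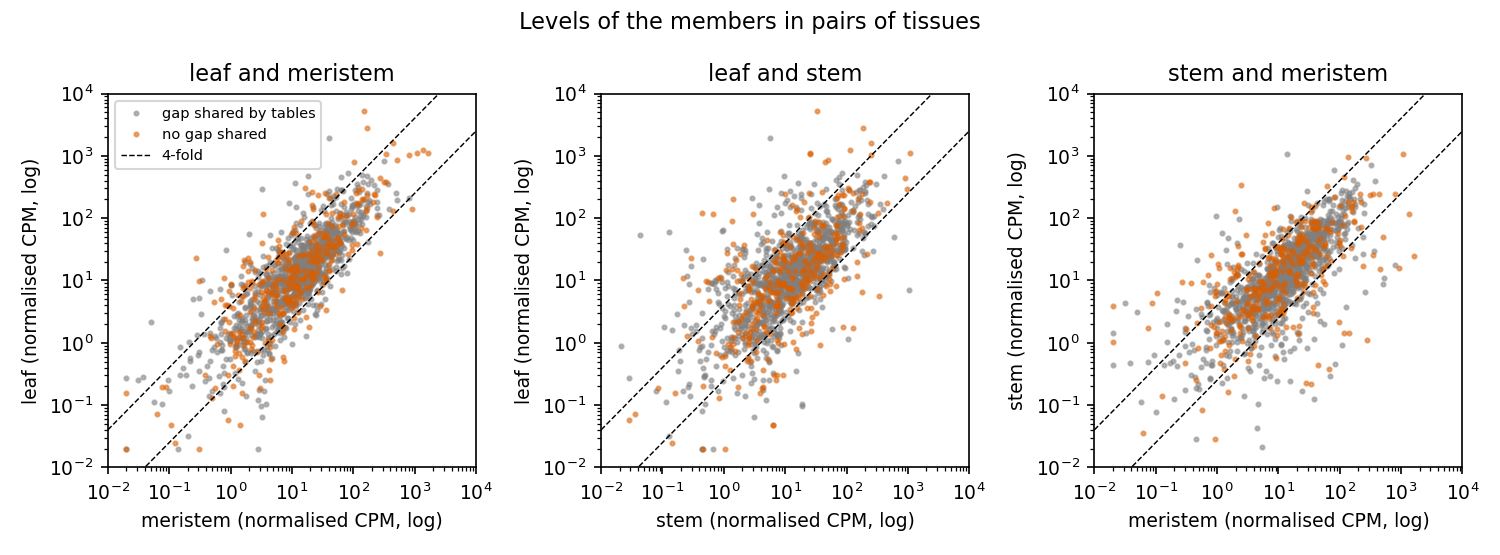
Normalised CPM of each member in leaf and meristem, leaf and stem, and stem and meristem (log axes, values under 0.02 CPM drawn at 0.02). Grey points are members with an identical gap in at least 2 tables and orange points those without, and dashed lines mark a 4-fold difference. Most members lie between the lines, and the orange points lie outside them more often.

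Most members differed little between leaf and meristem. Comparison required a model in both tissues and at least 10 normalised CPM in the higher one, and a fold of 4 or more was called a difference. Of 937 members compared, 87 were called higher in leaf (9.28%) and 29 higher in meristem (3.09%). Over all 16201 loci compared, the shares were 10.8% and 6.36%. The other multi-exon loci had 9.51% and 5.95%, and weighted to the members' exon numbers 7.49% and 6.96%. The members' interval for higher in meristem, 2.08 to 4.41%, lies below all 3 of these values. That for higher in leaf, 7.50 to 11.3%, contains the value of all loci and that of the other multi-exon loci, and its lower limit lies just above the weighted value. Of the 87 members called higher in leaf, 55 had no overlap with a locus on the other strand, and the part of such overlaps was not tested. Counted per base of model, 19 members were higher in meristem (2.03%), against 4.62% of all loci. Among loci with 1 model in every tissue, 4 of 456 members with a shared gap were higher in meristem (0.877%), against 2.65% of the other multi-exon loci. Members without the condition of a shared gap had 5 of 523 (0.956%). The other loci faced no such condition and were not weighted to exon numbers here. A long gap in at least 2 tables depends on the level in those tissues, so these shares are only a description. A difference of less than 2-fold was found for 63.0% of members and 57.1% of all loci compared.

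The most leaf-biased member against meristem lay on 001094F (1361 to 9830, minus strand), with 36203 fragments in leaf, 757 in stem and 519 in meristem. It was 89.6-fold higher in leaf than in meristem (82.2 to 97.9), and its 2 blocks were separated by 6978 bases in every table. Second was a locus on 000218F (1158074 to 1179334, plus strand), with 2837 fragments in leaf, 1320 in stem and 43 in meristem. It was 84.8-fold higher in leaf than in meristem (62.8 to 117), and 47.4-fold per base of model.

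In the other direction the folds were smaller. The member on 004312F (276267 to 298574, minus strand) had 158 fragments in leaf, 929 in stem and 2704 in meristem, 13.3-fold more in meristem than in leaf (11.3 to 15.7) and 6.97-fold per base of model. Its gap of 10715 bases was present in stem and meristem. A locus on 004798F (6671 to 252787, plus strand) had 415 fragments in leaf, 531 in stem and 5761 in meristem. It was 10.8-fold higher in meristem than in leaf (9.78 to 12), with 5 models in leaf, 4 in stem and 1 in meristem.

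Leaf and stem differed at more members. Of 950 compared, 136 were called higher in leaf (14.3%) and 75 higher in stem (7.89%), against 18.0% and 10.4% of all 16528 loci compared. The weighted shares of the other multi-exon loci were 14.5% and 9.45%, both inside the members' intervals of 12.1 to 16.7% and 6.26 to 9.80%.

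Members on the leaf side included 1 on 003272F (325389 to 340652, plus strand), with 6735 fragments in leaf, 6 in stem and 707 in meristem. The ratio of leaf to stem was 1280 (590 to 3500), and 282 per base of model, where the stem model covers 307 bases and the leaf model 1398. A locus on 000746F (569615 to 607745, minus strand) had 7384 fragments in leaf, 18 in stem and 6142 in meristem. It was 469-fold higher in leaf than in stem (297 to 792) and 30.3-fold per base of model, with a stem model of 257 bases.

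Both leading members on the stem side have similar fragment counts and longest gaps, though they lie on different contigs. The locus on 003129F (355068 to 362112, minus strand) had 12 fragments in leaf, 2711 in stem and 494 in meristem. That on 005410F (101030 to 108033, plus strand) had 13 in leaf, 2700 in stem and 605 in meristem. The stem level was 197-fold the leaf level (113 to 383) at the first and 182-fold (106 to 341) at the second. Per base of model it was 107-fold at the first, whose leaf model covers 587 bases, and 179-fold at the second. Each has 5 blocks in stem and meristem, with a gap of 5471 bases in the first and 5469 bases in the second. They may share reads, so their counts are uncertain as those of the look-alikes are.

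Between stem and meristem, 77 of 939 members were called higher in stem (8.20%) and 83 higher in meristem (8.84%), against 9.63% and 12.9% of all 16370 loci compared. The weighted shares of the other multi-exon loci were 6.63% and 11.6%, and the members' intervals were 6.53 to 10.1% and 7.10 to 10.8%. The share higher in meristem was below that of all loci and of the other multi-exon loci, as it was in leaf and meristem, and the 2 comparisons share the meristem column.

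The leading stem member was on 000265F (786843 to 794660, minus strand), with 619 fragments in leaf, 5265 in stem and 39 in meristem. It was 152-fold higher in stem than in meristem (111 to 214) and 67.7-fold per base of model. Its gap of 5046 bases stood in leaf and stem, and its meristem models were 4 single blocks. Next, on 003157F (110555 to 137707, plus strand), 3 blocks collected 709 fragments in leaf, 47455 in stem and 392 in meristem, 136-fold more in stem than in meristem (123 to 151). The longest gap was 25975 bases in leaf, 26004 in stem and 25952 in meristem, and 1 locus is nested in it.

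Higher in meristem than in stem was the locus on 000746F named above, by 304-fold (192 to 513) and by 17.5-fold per base of model. Second was a locus on 006723F (137602 to 168823, minus strand), with 3446 fragments in leaf, 157 in stem and 43802 in meristem. It was 248-fold higher in meristem than in stem (212 to 292), and 205-fold per base of model. Its longest gap was 25358 bases in leaf, 25783 in stem and 25099 in meristem.

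**Figure D5:**
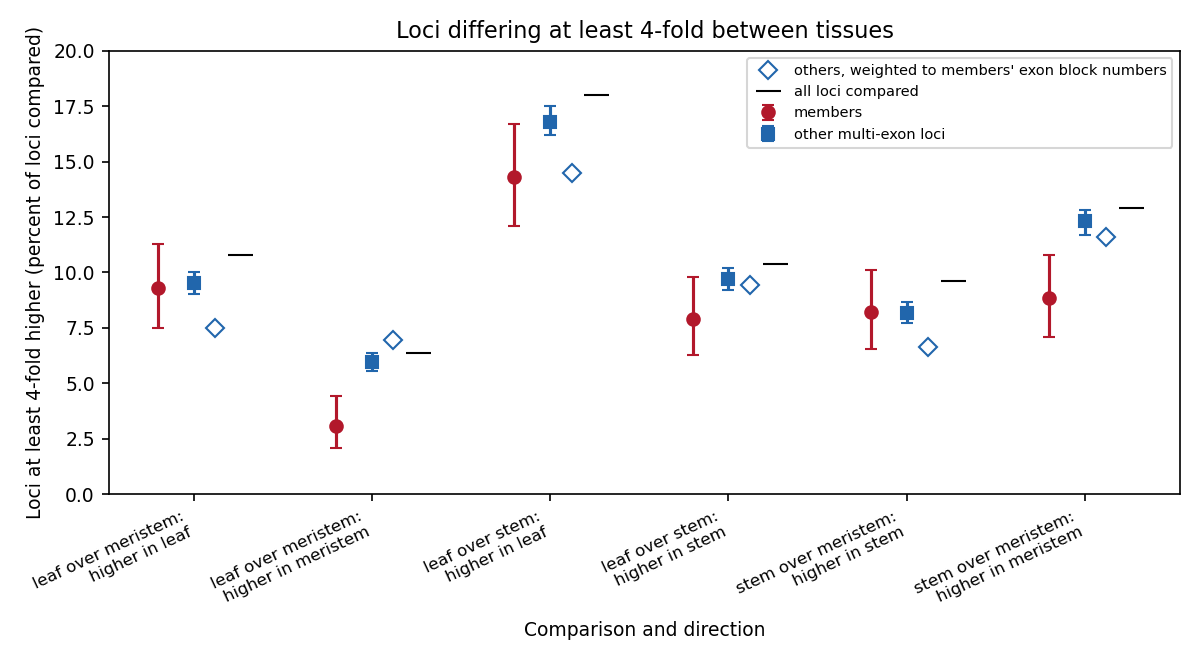
Percent of compared loci that are at least 4-fold higher in the named tissue (vertical axis), for each comparison and direction (horizontal axis). Red circles are members and blue squares other multi-exon loci, with exact binomial 95% intervals over loci. Open diamonds are the others weighted to the members' exon block numbers, and black dashes are all loci compared. The members' share higher in meristem than in leaf is 3.09%, where all loci have 6.36%.

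Few members were enriched in 1 tissue. Of 1012 members with at least 10 CPM in some tissue, 46 were leaf-enriched (4.55%), 40 stem-enriched (3.95%) and 17 meristem-enriched (1.68%), that is at least 4-fold above both other tissues. The shares over 17864 loci were 6.43%, 4.88% and 3.33% in that order. The other multi-exon loci, weighted to the members' exon numbers, had 4.59%, 3.58% and 3.52%. The members' intervals for leaf (3.35 to 6.02%) and stem (2.84 to 5.34%) contain the weighted values. That for meristem (0.982 to 2.68%) lies below its weighted value. A level at least 4-fold below both other tissues was found at 4 members in leaf (0.395%), 55 in stem (5.43%) and 15 in meristem (1.48%), where the other multi-exon loci had 1.25%, 5.83% and 1.06%.

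The direction of the leaf comparisons rests on the scaling. The TMM factors raise leaf relative to the other tissues. Without them the median log2 difference of all loci compared was -0.65 in leaf over meristem, in place of 0.08, and -0.65 in leaf over stem, in place of 0.08. Member medians were -0.65 in place of 0.07, and -0.68 in place of 0.01. Without factors 44 members were called for leaf and 82 for meristem, a leaf share of 34.9% in place of 75%. In leaf and stem, 90 were higher in leaf and 146 in stem, a leaf share of 38.1% in place of 64.5%. Leaf-enriched members then numbered 27 and meristem-enriched members 30, and the shares of enriched loci were not worked out without the factors. The member share higher in meristem than in leaf was below that of all loci with the factors and without them, at 8.78% of members and 13.3% of all loci without them.

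Members whose gap was not shared between tables differed between tissues more often. A difference of at least 4-fold in any pair of tissues was found at 110 of 239 such members (46.0%) and at 200 of 773 members with an identical gap in at least 2 tables (25.9%). Other multi-exon loci had 36.4% and all loci 39.1%. By gap length, the share was 25.4% at 5 to 10 kb, 29.6% at 10 to 20 kb, 38.1% at 20 to 50 kb, 45.3% at 50 to 100 kb and 53.1% above 100 kb. Model lengths moved with this: the shortest tissue model was at most 50% as long as the longest in 23.9% of members without a shared gap and in 9.39% of those with one. Counting only differences that kept a fold of at least 4 per base of model, the shares were 41.0% without a shared gap and 22.0% with one. One model in every tissue was found for 59.6% of members at 5 to 10 kb and for 28.8% at 50 to 100 kb. An identical gap in at least 2 tables needs a model across it in those tissues, so the level takes part in this grouping. Among gaps of 5 to 10 kb, a larger share was found in a single table at members with a low level in their lowest tissue. Above 20 kb this was not so. A member low in a tissue may thus both lack a shared gap and be called different, so the shares are only a description. The parts of level and of model joining in these differences were not tested.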

How the data were processed

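Fragments were counted by the authors with featureCounts 1.6.3, per the file headers, on paired reads with strand setting 1 and a separate model file for each tissue. The deposited values are raw counts. The submitters' processing notes name HISAT2 2.1.0 and StringTie 1.3.3b. Coordinates are on contigs of what the headers call a masked and deduplicated Cascade assembly. The sources used here do not say whether the library kit kept strand, so a locus overlapped on the other strand may share reads with its partner. Multiply aligned reads are not counted under the default options of featureCounts.

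Loci and gaps were derived with Python 3.11.15 and the packages numpy 2.4.6, scipy 1.17.1 and pandas 2.3.3. The deposited counts were scaled to CPM by table totals and TMM factors (0.759 for leaf, 1.13 for stem, 1.17 for meristem). These came from edgeR 4.0.16 under R 4.3.3, used for normalisation only, on 33671 loci. The planned quasi-likelihood test needs replicates and was not run. A count of 0 entered folds as 3, worth 0.0184 CPM in leaf, 0.0239 in stem and 0.0221 in meristem before the factors. Intervals are exact (Clopper-Pearson) 95% intervals for counting error alone: PCR reads with no recorded molecular identifiers are not separate molecules, and loci are treated as independent. The calling step was tested on simulated data.

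Members, limits and alternatives were chosen with earlier results of these data known. Named loci are the top 2 per direction and comparison, the most abundant member of each tissue, the 3 with the longest gap and the one with the most long gaps. Comparisons of gap ends and of look-alikes were added after the data were seen. Gene numbers matched the RefSeq gene table in 0 cases, so no names or sequences are given.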

Additional observations from a re-analysis of the deposited data

How the results depend on the processing

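No paired analysis was possible because each tissue has a single column without a replicate number. Leaving out single libraries, the quasi-likelihood test and DESeq2 were not run for the same reason. RLE size factors and no low-count filter kept the 9 counts of members called and the 3 median levels near their values, and joining models by whole span gave 1430 members. In the lists that follow, counts are ordered as leaf and meristem (leaf over meristem), leaf and stem (leaf over stem), stem and meristem (stem over meristem), then leaf-, stem- and meristem-enriched. Shares are given for the counts between pairs of tissues, in the same order, among members compared and among all loci compared. They were not worked out for the enriched counts under the alternatives. As reported the counts were 87, 29, 136, 75, 77, 83, 46, 40 and 17. Without scaling factors the counts were 44, 82, 90, 146, 77, 92, 27, 53 and 30, and the median levels were 9.19 CPM in leaf, 13.6 in stem and 14.4 in meristem. Of 934, 932 and 984 members compared, the shares were 4.71%, 8.78%, 9.66%, 15.7%, 7.83% and 9.35%. All loci had 5.83%, 13.3%, 12.1%, 18.9%, 9.18% and 13.6%. At a minimum level of 1 CPM the counts were 115, 76, 173, 138, 120, 118, 52, 58 and 25. Of 1384, 1396 and 1398 members compared, the shares were 8.31%, 5.49%, 12.4%, 9.89%, 8.58% and 8.44%. All loci had 10.1%, 10.5%, 16.7%, 13.5%, 10.8% and 13.2%. With a fold of 2 the counts were 207, 140, 264, 231, 196, 188, 132, 124 and 55. Of 937, 950 and 939 members compared, the shares were 22.1%, 14.9%, 27.8%, 24.3%, 20.9% and 20%. All loci had 24.8%, 18.0%, 31.6%, 25.4%, 23.6% and 25.1%. Per base of model the counts were 91, 19, 135, 51, 74, 75, 49, 29 and 13. Of 937, 950 and 939 members compared, the shares were 9.71%, 2.03%, 14.2%, 5.37%, 7.88% and 7.99%. All loci had 11.1%, 4.62%, 17.8%, 8.41%, 9.4% and 12.1%. Other alternatives left fewer members by construction. Beside these, all loci had 10.8%, 6.36%, 18.0%, 10.4%, 9.63% and 12.9%, as reported. With a gap over 10 kb (704 members) the counts were 48, 17, 77, 47, 47, 50, 22, 25 and 9. Of 450, 470 and 458 members compared, the shares were 10.7%, 3.78%, 16.4%, 10%, 10.3% and 10.9%. With the gap in all 3 tables (1084) the counts were 61, 15, 85, 47, 53, 45, 29, 25 and 8. The medians were then 14.8, 14.7 and 14.3 CPM in leaf, stem and meristem. Of 765, 779 and 766 members compared, the shares were 7.97%, 1.96%, 10.9%, 6.03%, 6.92% and 5.87%. Without members overlapped on the other strand (1252) the counts were 55, 28, 107, 58, 52, 68, 32, 29 and 17. Of 809, 816 and 814 members compared, the shares were 6.8%, 3.46%, 13.1%, 7.11%, 6.39% and 8.35%. With an identical gap in at least 2 tables (1097) the counts were 56, 19, 91, 45, 41, 55, 32, 20 and 12. Of 730, 726 and 719 members compared, the shares were 7.67%, 2.6%, 12.5%, 6.2%, 5.7% and 7.65%. With 1 model per tissue (750) the counts were 39, 5, 65, 21, 31, 28, 21, 16 and 5, and the medians were 17.5, 15.4 and 15.5 CPM. Of 523, 526 and 508 members compared, the shares were 7.46%, 0.956%, 12.4%, 3.99%, 6.1% and 5.51%. The last 2 alternatives were chosen after seeing the data.

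In the order of these 5 alternatives, the share of members with a nested locus was 33.1%, 15.2%, 18.1%, 12.3% and 13.1%, against 22.1% as reported. The members' share of all fragments was 2.95%, 3.95%, 4.14%, 3.30% and 3.22%, against 5.23%. The share whose longest gap is the first stayed between 13.2% and 15.6%, against 14.9%. Defining the other multi-exon loci by blocks in all 3 tables gave 20323 in place of 22234. Identical ends in all 3 tables were found for 68.0% of gaps of 5 to 10 kb at members of 10 CPM or more in the lowest tissue and 41.7% at 1 to 10 CPM. At 20 to 50 kb the shares were 17.7% and 21.2%.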
